A study of Mus musculus with 14 samples.

Results

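Long-term repopulating stem cells, the small population of bone marrow cells that can rebuild the blood for the life of a mouse, are recognised by a set of genes that are switched down as the cells mature. Their levels were compared in 14 RNA-seq libraries for Procr, Pdzk1ip1, Sult1a1, Fgd5, Ctnnal1, Mllt3, Tek, Esam, Robo4 and Nov. These are 10 of the 24833 genes in the count table, and all 10 were among the 15466 genes with enough counts to be tested. The libraries came from C57BL/6 bone marrow cells sorted as SLAM cells (LSK/Flk2-/CD48-/CD150+), a fraction enriched for stem cells that are lineage-negative, carry Sca-1, Kit and CD150, and lack Flk2 and CD48. Mice were injected intraperitoneally with the inflammatory cytokine interleukin-1β (IL-1β; 0.5 µg a day for each mouse) or with saline buffer (PBS). There were 3 IL-1β and 3 PBS libraries at 1 day and 4 IL-1β and 4 PBS libraries at 20 days, each from cells pooled over 3 to 5 mice. No label gives the age or sex of the mice. A pool cannot show how single mice differ.

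Several of these genes have a role in more than 1 cell type. Procr, Tek, Esam and Robo4 encode surface proteins that are also present on blood vessel endothelium. Reporter mice built on Fgd5 and Ctnnal1 label stem cells in mouse bone marrow, and antibodies to the products of Procr and Esam are used to sort them. Inflammatory cytokines drive stem cells into division and toward myeloid cells, and marker levels are commonly read as a sign of how far cells have left the resting stem cell state.

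Pdzk1ip1 and Sult1a1 fell after 1 day of IL-1β, and after 20 days Nov fell and Tek rose. Levels are given in CPM, counts scaled to library size, with TMM factors that correct for differences in library composition. Fold changes are log2 of IL-1β over PBS with an approximate SE, from edgeR's quasi-likelihood F-test (two-sided) in 1 fit over all libraries, and adjusted p-values are Benjamini-Hochberg values over all 15466 genes, with 0.05 as the threshold. At 1 day 0 of the 10 markers were called higher and 2 lower, where 4.35% of all genes tested were called (2.52% higher and 1.83% lower). At 20 days 1 was called higher and 1 lower, against 7.46% of all genes (3.94% higher and 3.52% lower). The 1 called lower was Nov, which had enough counts to be tested only through its PBS libraries. DESeq2, run on the same design, called 3 markers at 1 day, all lower, and 7 at 20 days, 3 higher and 4 lower. Of the 15466 genes it called 1398 at 1 day and 1809 at 20 days, more than edgeR did. Without PBS replicate 4 of the 20-day group edgeR called 5 markers at 20 days. The fits that left out 1 library called 648 to 1156 genes at that duration. The median log2 fold change of the 10 markers was -0.35 at 1 day and 0.15 at 20 days, beside -0.01 and 0 over all genes. At 1 day 7 of the 10 fold changes were negative and the IL-1β libraries lay wholly below the PBS libraries for 6 markers, where 17.7% of all genes had such separation, 8.91% below and 8.75% above. At 20 days 6 fold changes were positive, with 2 markers wholly above and 1 wholly below the PBS libraries, against 10.4% of all genes without overlap, 5.39% above and 4.99% below. Nov was among the 6 below at 1 day and was the 1 below at 20 days. Over all genes, 48% of fold changes were positive at 1 day and 49.9% at 20 days.

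**Figure D1:**
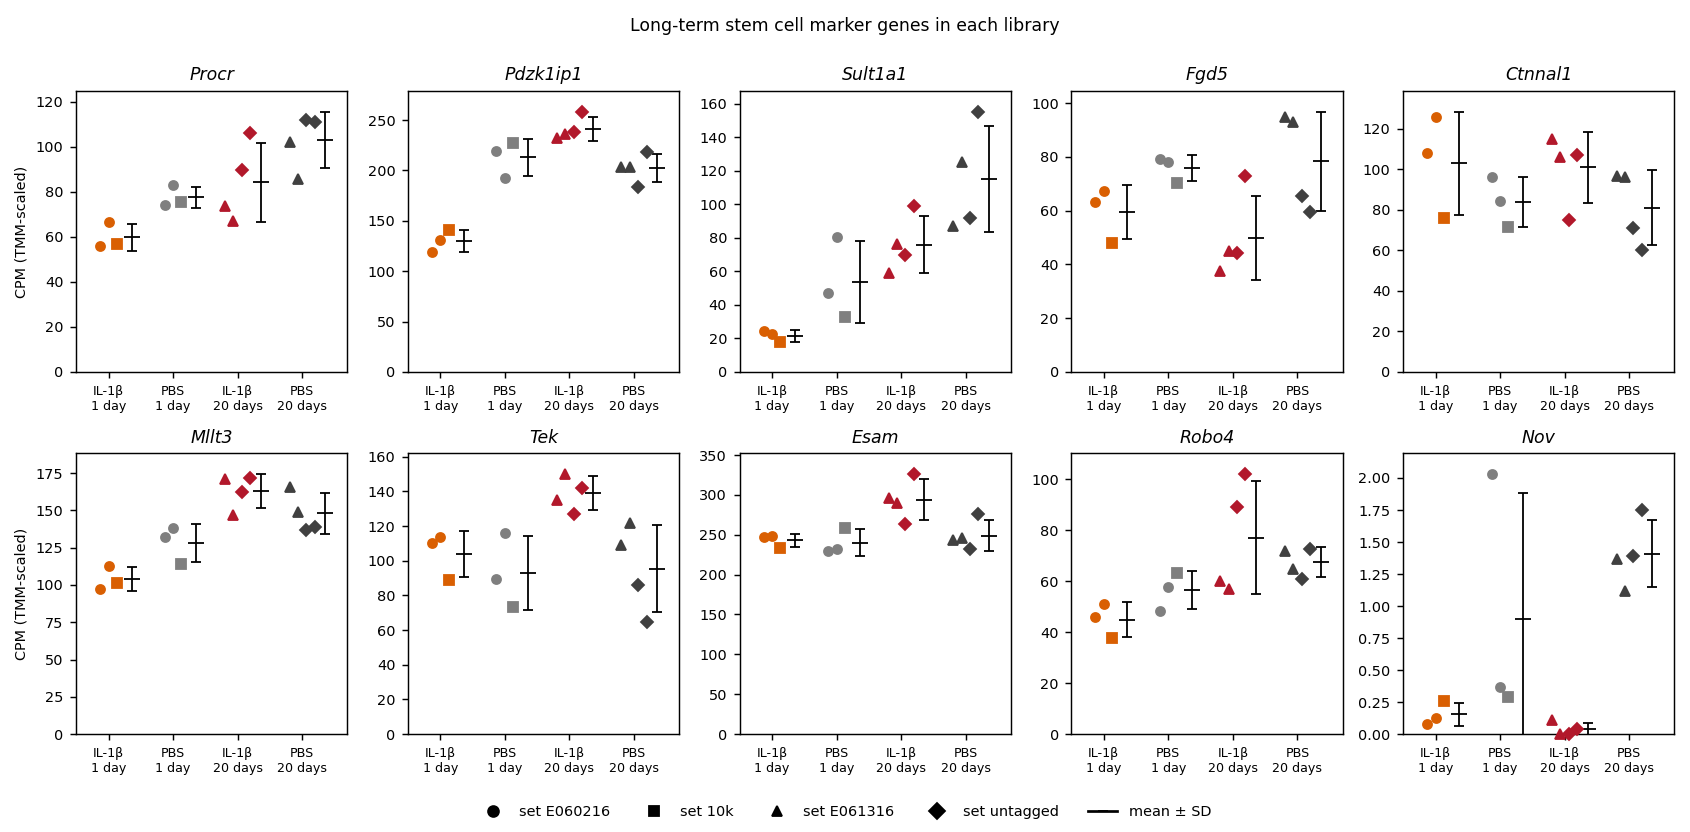
CPM (TMM-scaled, linear axis from 0) of the 10 marker genes in each of the 14 libraries, IL-1β left of PBS at each duration; each point is a library, its shape gives the naming set of its title, and the bar beside each group is the mean ± SD. The IL-1β points of Pdzk1ip1 lie between 119 and 141 CPM at 1 day, below all PBS points, and between 232 and 258 CPM at 20 days, above all PBS points.

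The library totals lay between 21654896 and 29441947 counts, and 3 counts in a library amounted to 0.102 to 0.139 CPM. Library titles fall into 4 naming sets whose tags are not explained, and each set holds as many IL-1β as PBS libraries. At 1 day replicates 1 and 2 are E060216 and replicate 3 is 10k. At 20 days replicates 1 and 2 are E061316, and replicates 3 and 4 carry no tag. The fit held a term for the set. In the sort, Kit, Ly6a (Sca-1) and Slamf1 (CD150) together summed to 780 to 1860 CPM over all libraries. Flt3 and Cd48, whose products the sort selects against, summed to 84.2 to 148 CPM under IL-1β and 43.9 to 65.6 CPM under PBS at 20 days, and to 48.1 to 57.4 CPM under IL-1β and 46.8 to 67.6 CPM under PBS at 1 day. At 20 days both were called higher, Flt3 by 1.02 (edgeR adjusted p = 0.000768) and Cd48 by 1.10 (adjusted p = 0.0197). Genes of multipotent progenitors, the next stage of maturation, moved with the 20-day comparison: of 8 genes tested 6 were called higher and none lower. Flt3 and Cd48 are among these 6. The summed level of the 8 was 923 to 1040 CPM in IL-1β libraries and 564 to 741 CPM in PBS libraries. Cd34 held the largest part, at 416 CPM under IL-1β and 356 CPM under PBS, and was not called (edgeR adjusted p = 0.207). At 1 day 1 of the 8 was higher, with sums of 769 to 835 CPM under IL-1β and 660 to 730 CPM under PBS. Replicate 3 of the 20-day IL-1β group stood apart with 2650 CPM over 13 neutrophil genes, where the other 13 libraries had 97.8 to 194 CPM. Prtn3 held most of the sum in those other libraries. Without it the remaining 12 genes summed to 2430 CPM in replicate 3 and to 2.1 to 15 CPM in the other 13. Without that library 2 markers were still called at 20 days, 1 higher and 1 lower. The part of these patterns in the marker values was not tested. In bulk RNA, fewer cells of a type and less RNA per cell cannot be told apart.

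Per kilobase of annotated exon, the 10 markers ranged over more than 2 orders of magnitude. In PBS libraries at 1 day Pdzk1ip1 stood first at 120 CPM per kilobase, followed by Esam at 83.7, Procr at 38.2, Sult1a1 at 35.6, Tek at 19.8, Fgd5 at 12.1, Ctnnal1 at 11, Mllt3 and Robo4 at 10.7 each, and Nov at 0.312. The library ranges of Procr, Sult1a1 and Tek overlapped from one to the next in this order, as did those of Fgd5, Ctnnal1, Mllt3 and Robo4, while Pdzk1ip1, Esam and Nov stood clear of their neighbours. The order at the top differed after 1 day of IL-1β. There Esam led at 84.8 CPM per kilobase (library range 81.6 to 86.5) and Pdzk1ip1 came next at 73.1 (66.9 to 79.3), whereas Pdzk1ip1 led in each of the other 3 groups. Exon lengths are the union of all annotated transcripts, so genes with long or many isoforms, such as Mllt3 at 12004 bases, are understated.

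Pdzk1ip1 encodes a small membrane protein that binds PDZ-domain scaffolds, and its transcript is used as a marker of long-term stem cells in mouse marrow. It lies on chromosome 4 from 115088708 to 115093899 on the plus strand (ENSMUSG00000028716, GRCm38, 5192 bases). Its promoter is shown because it is the only marker whose response to IL-1β edgeR called different between the durations over all libraries. The sequence is RefSeq's on GRCm38.p6, chr4:115088458-115088757, plus strand, with CpG dinucleotides in capitals.
Pdzk1ip1: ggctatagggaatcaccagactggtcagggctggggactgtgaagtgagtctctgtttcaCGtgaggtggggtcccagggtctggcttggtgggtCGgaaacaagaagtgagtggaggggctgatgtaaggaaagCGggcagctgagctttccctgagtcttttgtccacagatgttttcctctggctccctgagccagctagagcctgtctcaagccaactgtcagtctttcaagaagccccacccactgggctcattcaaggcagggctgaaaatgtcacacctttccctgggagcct
It holds 3 CpG dinucleotides, where the median over 32851 promoters of the same length was 7 and 31.4% held 3 or fewer.

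After 1 day Pdzk1ip1 stood at 119, 131 and 141 CPM in the IL-1β libraries, against 219, 192 and 227 CPM in the PBS libraries. The groups did not overlap, and the highest IL-1β library was well below the lowest PBS library. The means were 130 ± 11.2 CPM under IL-1β and 213 ± 18.5 CPM under PBS (SD, n = 3 each), a log2 fold change of -0.71 ± 0.09 (1.63-fold lower, edgeR adjusted p = 0.000619). The change was -0.72 in the E060216 set and -0.68 in the 10k set. The call held in each of the 14 fits that left out 1 library, with an adjusted p of at most 0.00993.

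After 20 days the order of the groups was turned round. Pdzk1ip1 stood at 232, 236, 238 and 258 CPM in the IL-1β libraries, against 203, 203, 184 and 218 CPM in the PBS libraries. Again no library of one group reached into the other. The log2 fold change was 0.25 ± 0.08 and missed the threshold (edgeR adjusted p = 0.0671), with 0.20 and 0.31 in the E061316 and untagged sets. Without replicate 4 of the PBS group it was 0.29 and was called (adjusted p = 0.0385). The test of the difference itself, the 20-day effect minus the 1-day effect, gave 0.96 ± 0.12 on the log2 scale (edgeR adjusted p = 0.00448), and this call too held in all 14 leave-out fits, with an adjusted p of at most 0.0357. It was the only one of the 10 markers called in this test, where 2.14% of all genes were called (1.15% with a positive and 0.989% with a negative difference). Since no naming set spans both durations, set and duration cannot be told apart in such a difference, for this or any other marker. The PBS libraries had a mean of 202 ± 13.9 CPM at 20 days (n = 4) and 213 ± 18.5 CPM at 1 day (n = 3).

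**Figure D2:**
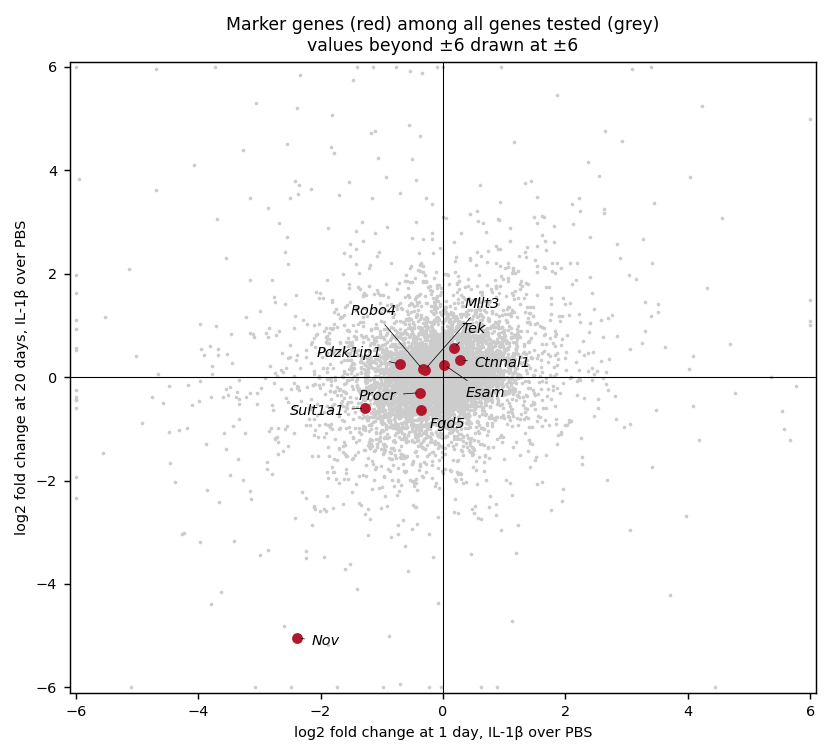
Log2 fold change of IL-1β over PBS at 1 day (horizontal) and at 20 days (vertical) for all 15466 genes tested (grey) and the 10 markers (red, named), with values beyond 6 in either direction drawn at the edge. Pdzk1ip1 lies at -0.71 and 0.25, Tek at 0.17 and 0.57, and Nov far down on the left at -2.38 and -5.05.

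Genes near Pdzk1ip1 on the chromosome were examined as well. Cyp4x1, a cytochrome P450 gene 12424 bp away, had log2 fold changes of 1.23 at 1 day and 1.53 at 20 days, neither called (edgeR adjusted p = 0.799 and 0.647). Tal1, a stem cell transcription factor gene 16953 bp away, had log2 fold changes of -0.14 at 1 day and 0.02 at 20 days, neither called (edgeR adjusted p = 0.644 and 0.954). Stil, a centriole gene on the far side of Tal1, was higher at 1 day by 0.90 (adjusted p = 0.00878). Of the scaffold genes, Slc9a3r2 was lower at both durations, at -0.72 ± 0.17 at 1 day (adjusted p = 0.0279) and -0.67 ± 0.15 at 20 days (adjusted p = 0.0134). It was the 1 called gene of 3 tested in a list of PDZ scaffolds and sodium glucose transporters at either duration. Across the 14 libraries the genes whose centred log2 CPM lay nearest to that of Pdzk1ip1 were Apoe and Klc4, each with a root mean square difference of 0.13, where the median of 10186 genes was 0.42. Apoe, which encodes a lipid carrier, averaged 525 CPM under IL-1β and 844 CPM under PBS at 1 day, and 958 CPM under IL-1β and 804 CPM under PBS at 20 days. Klc4 encodes a kinesin light chain and was not called at either duration (adjusted p = 0.0739 and 0.332).

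Sult1a1 encodes a cytosolic enzyme that attaches sulfate to phenolic compounds. It lies on chromosome 7 from 126672865 to 126676432 on the minus strand (ENSMUSG00000030711, GRCm38). Its end overlaps that of Sgf29 on the opposite strand by 61 exonic bases, where reads of the 2 genes cannot be told apart because the libraries carry no strand information. Sgf29, listed in the counts under its older name Ccdc101, was not called at 1 day (0.13, adjusted p = 0.654) or at 20 days (-0.27, adjusted p = 0.182). The promoter of Sult1a1 (RefSeq, GRCm38.p6, chr7:126676369-126676668, minus strand) is shown beside that of Fgd5 (chr6:91978715-91979014, plus strand), a marker that was not called, because they are the extremes of the set in CpG content.
Sult1a1: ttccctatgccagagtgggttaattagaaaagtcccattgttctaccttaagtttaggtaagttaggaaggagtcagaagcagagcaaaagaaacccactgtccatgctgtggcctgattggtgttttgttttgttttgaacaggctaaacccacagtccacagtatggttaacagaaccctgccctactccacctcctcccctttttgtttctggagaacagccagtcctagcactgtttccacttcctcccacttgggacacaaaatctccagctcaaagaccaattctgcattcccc
Fgd5: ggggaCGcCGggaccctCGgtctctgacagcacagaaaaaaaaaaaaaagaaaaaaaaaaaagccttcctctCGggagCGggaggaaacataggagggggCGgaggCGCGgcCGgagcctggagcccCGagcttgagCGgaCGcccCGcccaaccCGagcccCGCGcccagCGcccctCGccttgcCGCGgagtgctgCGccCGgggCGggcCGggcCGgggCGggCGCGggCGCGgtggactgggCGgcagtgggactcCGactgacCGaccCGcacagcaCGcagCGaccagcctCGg
With CpG in capitals, Sult1a1 has 0 and Fgd5 has 37. RefSeq entries were at hand for 8 of the 10 markers and not for Esam and Nov. In between, Robo4 held 2, Pdzk1ip1 and Tek 3 each, Procr 13, Ctnnal1 24 and the first promoter of Mllt3 29, and 20.0% of all promoters held 24 or more.

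After 1 day Sult1a1 stood at 24.4, 22.4 and 17.7 CPM in the IL-1β libraries, against 47.2, 80.5 and 33.0 CPM in the PBS libraries. All IL-1β libraries were low and close together, while the PBS libraries were spread widely. The means were 21.5 ± 3.46 CPM under IL-1β and 53.6 ± 24.4 CPM under PBS (SD, n = 3 each). The log2 fold change was -1.27 ± 0.24 (2.41-fold lower, edgeR adjusted p = 0.00738), with -1.40 in the E060216 set and -0.90 in the 10k set. The call was lost in 3 of 14 leave-out fits: without IL-1β replicate 1 (adjusted p = 0.0638), IL-1β replicate 2 (0.0547) or PBS replicate 2 (-0.96, adjusted p = 0.0528).

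After 20 days Sult1a1 stood at 58.9, 76.4, 69.5 and 98.9 CPM under IL-1β, against 86.9, 125, 91.6 and 155 CPM under PBS. The groups overlapped through the highest IL-1β library. The log2 fold change of -0.60 ± 0.20 missed the threshold (edgeR adjusted p = 0.0896), and without PBS replicate 3 it was -0.74 and called (adjusted p = 0.0442). DESeq2 called it as well (adjusted p = 0.0286). An edgeR fit with a replicate block in place of the set, a pairing that no label gives, called it at -0.58 (adjusted p = 0.0438). Between the durations the effects differed by 0.67 ± 0.31, which was not called (adjusted p = 0.265). Of the 10 markers Sult1a1 had the largest difference between the PBS groups, which averaged 115 ± 31.8 CPM at 20 days (n = 4) and 53.6 ± 24.4 CPM at 1 day (n = 3). That difference of 1.09 ± 0.28 on the log2 scale was not called (unadjusted p = 0.00122, adjusted p = 0.992), and since no naming set spans both durations, set and duration cannot be told apart in it. Of the other cytosolic sulfotransferase genes and the sulfate donor genes, 6 were tested and 0 were called at either duration. Among them Papss1, which makes the sulfate donor, had 89.8 ± 1.03 CPM under IL-1β and 87.9 ± 3.58 CPM under PBS at 1 day. The others averaged at most 3.13 CPM in any group, so a change in them could be missed. Nearest to Sult1a1 across libraries were Lancl3 and Hif3a, with root mean square differences of 0.36 and 0.37, where the median gene had 0.97.

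Tek encodes Tie2, the receptor for angiopoietins, which in mouse marrow has been tied to the resting state of stem cells. It lies on chromosome 4 from 94739289 to 94874976 on the plus strand (ENSMUSG00000006386, GRCm38). Its RefSeq promoter (GRCm38.p6, chr4:94739039-94739338, plus strand) is shown because Tek was the 1 marker called higher. CpG is in capitals.
Tek: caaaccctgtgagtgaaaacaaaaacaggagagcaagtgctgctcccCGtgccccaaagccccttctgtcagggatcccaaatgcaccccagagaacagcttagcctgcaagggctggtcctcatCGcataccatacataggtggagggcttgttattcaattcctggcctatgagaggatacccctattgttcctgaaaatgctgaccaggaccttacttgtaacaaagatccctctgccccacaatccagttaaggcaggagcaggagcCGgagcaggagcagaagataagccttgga
It was the only marker promoter with the letters GATAA on either strand, which 25.4% of all promoters held. The PU.1 letters GAGGAA, held by 28.3% of all promoters, occurred in those of Pdzk1ip1, Sult1a1, Fgd5, Mllt3 and Robo4, and the NF-kB pattern (GGGA, 4 bases of any kind, CC), held by 20.7%, in those of Pdzk1ip1 and Procr. No marker promoter held TATAAA, held by 13.6% of all. Both strands were searched, and a match describes letters only.

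After 20 days Tek stood at 135, 150, 127 and 142 CPM in the IL-1β libraries, against 109, 122, 86.3 and 64.7 CPM in the PBS libraries. The groups did not overlap, and the lowest PBS values were both in the untagged set. The means were 139 ± 9.72 CPM under IL-1β and 95.3 ± 25.1 CPM under PBS (SD, n = 4 each), a log2 fold change of 0.57 ± 0.13 (1.48-fold higher, edgeR adjusted p = 0.0144). The change was 0.30 in the E061316 set and 0.85 in the untagged set. A test of that difference between sets, chosen after the values were seen, gave 0.53 ± 0.21 (adjusted p = 0.20). Without IL-1β replicate 4 the effect was 0.47 and not called (adjusted p = 0.061), and without the naming set term it was 0.54 (adjusted p = 0.117). Without IL-1β replicate 3, the library high in neutrophil genes, it was 0.55 (adjusted p = 0.039).

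At 1 day Tek stood at 110, 114 and 89.1 CPM under IL-1β, against 89.6, 116 and 73.6 CPM under PBS. The groups overlapped, and the log2 fold change of 0.17 ± 0.15 was not called (edgeR adjusted p = 0.593). The 2 effects of Tek differed by 0.40 ± 0.19, which was not called either (adjusted p = 0.297). Among the other angiopoietin pathway genes, 1 of 4 tested was called at each duration, in the opposite direction to Tek at 20 days. This was Tie1, the partner receptor of Tie2, which was lower, at -0.47 ± 0.09 at 1 day (adjusted p = 0.0103) and -0.43 ± 0.08 at 20 days (adjusted p = 0.00536). Tie1 averaged 219 ± 24 CPM under IL-1β and 294 ± 16.2 CPM under PBS at 20 days. The ligand gene Angpt1 averaged 516 ± 115 CPM under IL-1β and 765 ± 206 CPM under PBS at 1 day, a difference of -0.56 ± 0.16 that was not called (adjusted p = 0.0631). Nearest to Tek across libraries were Nedd4l, a ubiquitin ligase gene, and Susd6, each with a root mean square difference of 0.12, where the median gene had 0.41.

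Nov encodes CCN3, a secreted matricellular protein, and is listed as Ccn3 in current annotation. It lies on chromosome 15 from 54745702 to 54754039 on the plus strand (ENSMUSG00000037362, GRCm38). It was by far the lowest of the markers, so counts are given. At 20 days the IL-1β libraries held 3, 0, 0 and 1 counts of Nov, against 31, 28, 41 and 40 counts in the PBS libraries. Every PBS library was far above every IL-1β library, in both naming sets. Summed over libraries and scaled to the totals, 4 counts under IL-1β and 140 counts under PBS made Nov 36.2-fold lower, with a 95% counting interval of 13.8 to 135 that does not cover the spread between libraries. The fitted log2 fold change was -5.05 ± 0.99 (edgeR adjusted p = 0.0066), whose size depends on the prior count at such levels. The call held in all 14 leave-out fits, with an adjusted p of at most 0.0275. Nov reached 10 counts, the minimum set for the low-count filter, only in PBS libraries. It therefore entered the test through the group that IL-1β is compared with. In a fit without that filter Nov was still called lower at 20 days, with a fold change of nearly the same size.

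At 1 day Nov had 2, 3 and 7 counts in the IL-1β libraries, against 51, 10 and 6 counts in the PBS libraries. A single PBS library held most of the PBS reads. In CPM the groups did not overlap by a narrow margin, with 0.0804, 0.124 and 0.256 CPM under IL-1β against 2.03, 0.367 and 0.289 CPM under PBS. The fitted log2 fold change of -2.38 ± 1.04 was not called (edgeR adjusted p = 0.228), and it was -2.43 in the E060216 set and -0.13 in the 10k set. Values within a set are differences of mean log2 CPM (prior count 2), which is another measure than the fit. At 20 days they were -3.44 in the E061316 set and -4.08 in the untagged set, both smaller in size than the fitted -5.05. The 20-day and 1-day effects differed by -2.66 ± 1.42 (adjusted p = 0.339). Of the other genes of the CCN family with Notch receptors and their target Hes1, 5 of 8 were tested, and 2 were called lower at 20 days and 0 at 1 day. These were Cyr61, which encodes CCN1, at -1.34 ± 0.29 (adjusted p = 0.0127), and Hes1 at -0.55 ± 0.15 (adjusted p = 0.042). Nearest to Nov across libraries were Myl10 and Chst2, with root mean square differences of 0.83 and 0.89, where the median gene had 1.67. Myl10, a myosin light chain gene, averaged 26.5 CPM under IL-1β and 161 CPM under PBS at 20 days. Chst2, a sulfotransferase of the Golgi, averaged 2.72 CPM under IL-1β and 15.7 CPM under PBS.

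**Figure D3:**
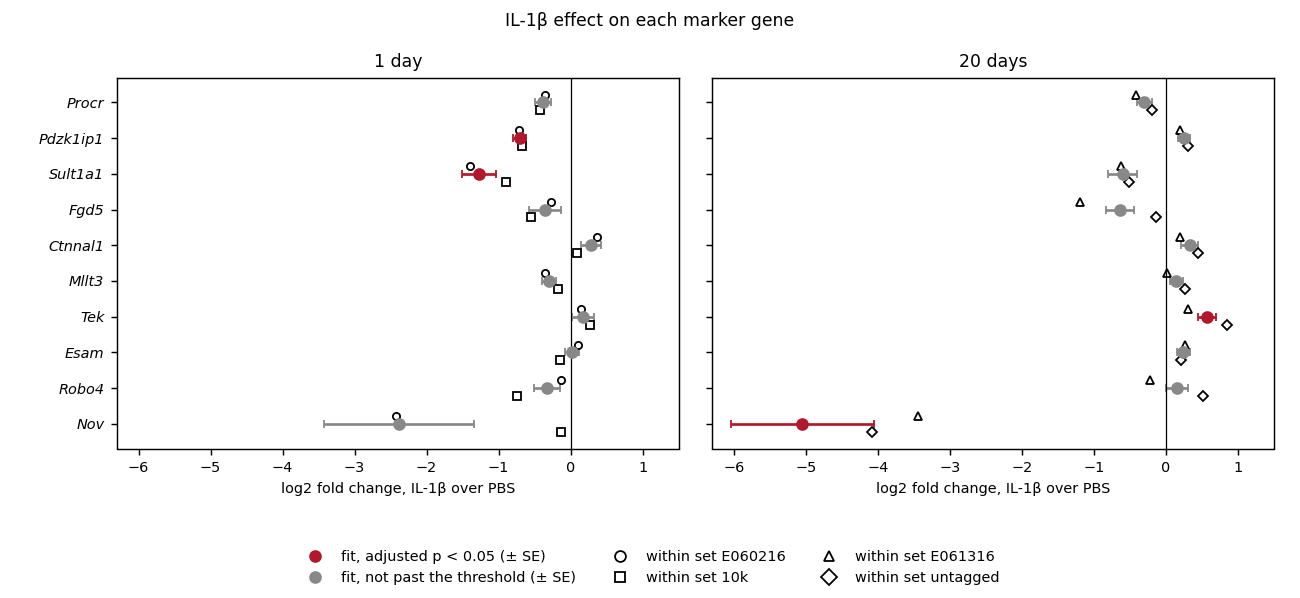
Log2 fold change of IL-1β over PBS (± SE) of each marker at 1 day and at 20 days, from the edgeR fit over 14 libraries. Red points are past the adjusted p threshold of 0.05 and grey points are not, and open symbols give the value within each naming set, with no test. The red points are Pdzk1ip1 at -0.71 and Sult1a1 at -1.27 at 1 day, and Tek at 0.57 and Nov at -5.05 at 20 days.

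Procr encodes the endothelial protein C receptor, CD201, and is on chromosome 2 from 155751117 to 155755471 on the plus strand (GRCm38). At 1 day it stood at 55.8, 66.6 and 56.7 CPM under IL-1β, against 74.2, 82.8 and 75.6 CPM under PBS. At 20 days it stood at 73.6, 67.2, 89.8 and 106 CPM under IL-1β, against 102, 85.5, 112 and 111 CPM under PBS. Procr was on the low side in the IL-1β libraries at both durations, without overlap at 1 day and with overlap at 20 days. The log2 fold changes of -0.38 ± 0.11 and -0.30 ± 0.10 both missed the threshold (edgeR adjusted p = 0.0758 and 0.0793), and they differed by 0.08 ± 0.15 (adjusted p = 0.849). DESeq2 called both (adjusted p = 0.0194 at 1 day and 0.0334 at 20 days). In a fit of the 1-day libraries alone the 1-day value was called (adjusted p = 0.0437), and without IL-1β replicate 4 the 20-day value was -0.39 and called (adjusted p = 0.0442). Of the protein C and thrombin receptor genes 5 were tested and 1 was called, F2rl2 (protease-activated receptor 3), which was higher at 20 days by 1.23 ± 0.25 (adjusted p = 0.00743).

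Fgd5, an exchange factor that activates the GTPase Cdc42, is on chromosome 6 from 91978878 to 92076004 on the plus strand (GRCm38). At 1 day it stood at 63.2, 67.4 and 48.0 CPM under IL-1β, against 79.2, 78.2 and 70.3 CPM under PBS. The groups did not overlap, but the log2 fold change of -0.36 ± 0.22 was not called over all libraries (edgeR adjusted p = 0.422), and was called in a fit of the 1-day libraries alone (adjusted p = 0.043). At 20 days it stood at 37.7, 44.9, 44.1 and 73.0 CPM under IL-1β, against 95, 93.1, 65.5 and 59.6 CPM under PBS. The untagged set held both the highest IL-1β library and the lowest PBS libraries. The log2 fold change was -0.64 ± 0.20 (adjusted p = 0.0625), with -1.19 in the E061316 set and -0.14 in the untagged set. The same test of the difference between sets gave 1.09 ± 0.26 (adjusted p = 0.0638). Without IL-1β replicate 4 the 20-day effect was -0.93 and was called (adjusted p = 0.00154), and without PBS replicate 4 it was -0.79 (adjusted p = 0.0298). Cdc42 itself and its other Fgd exchange factors gave 1 called gene of 6, Fgd2, which was higher at 20 days by 0.49 ± 0.11 (adjusted p = 0.0138). An antisense gene within Fgd5, 4930466I24Rik, held at most 18 counts in a library and shared no exonic base with it.

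Esam and Robo4 lie close together on chromosome 9, at 37528078 to 37538319 and 37401897 to 37415115 on the plus strand (GRCm38), 112962 bp apart with 2 protein-coding genes between. Esam encodes an immunoglobulin-family adhesion protein of cell junctions. It stood at 247, 248 and 234 CPM under IL-1β and 229, 232 and 259 CPM under PBS at 1 day. It stood at 296, 290, 264 and 326 CPM under IL-1β and 243, 246, 232 and 276 CPM under PBS at 20 days. The 1-day groups overlapped, with the sets on opposite sides of 0 (0.10 and -0.15), and at 20 days 3 of the 4 IL-1β libraries lay above all PBS libraries. Its log2 fold changes were 0.02 ± 0.10 (edgeR adjusted p = 0.951) and 0.24 ± 0.09 (adjusted p = 0.115), and without PBS replicate 4 the 20-day value was 0.30 and called (adjusted p = 0.0459). Among 7 junction genes tested, 1 was called, Jam3, which was lower at 20 days, at -0.49 ± 0.11 (adjusted p = 0.016).

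Robo4 encodes a roundabout receptor that in mouse stem cells takes part in anchoring them in the marrow. It stood at 45.9, 51.2 and 37.7 CPM under IL-1β and 48.4, 57.9 and 63.3 CPM under PBS at 1 day, with overlap. It stood at 60.1, 56.9, 89.1 and 102 CPM under IL-1β and 71.9, 64.6, 60.8 and 72.7 CPM under PBS at 20 days. Replicates 3 and 4 of the 20-day IL-1β group were high and replicates 1 and 2 low, so the naming sets gave opposite signs (-0.22 in E061316 and 0.52 in the untagged set). The log2 fold changes were -0.33 ± 0.18 (edgeR adjusted p = 0.333) and 0.15 ± 0.15 (adjusted p = 0.661), and the 20-day set difference was 0.74 ± 0.19 (adjusted p = 0.0693). Robo3, whose gene lies 554 bp from Robo4, was called higher at 20 days by 1.77 ± 0.23 (adjusted p = 0.000409) and averaged 29.5 ± 11.4 CPM under IL-1β and 8.49 ± 1.36 CPM under PBS. Robo1, another receptor of the family, was lower, at -1.41 ± 0.35 (adjusted p = 0.0249). These were the 2 called of 9 Slit and Robo pathway genes tested at 20 days, and 0 were called at 1 day.

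Ctnnal1 encodes alpha-catulin, a protein related to alpha-catenin, and is on chromosome 4 from 56810935 to 56865188 on the minus strand (GRCm38). It stood at 108, 126 and 75.9 CPM under IL-1β and 96.2, 84.4 and 71.5 CPM under PBS at 1 day, and at 115, 106, 75.0 and 107 CPM under IL-1β and 97.0, 96.4, 70.9 and 60.0 CPM under PBS at 20 days. The groups overlapped both times. The log2 fold changes of 0.28 ± 0.14 and 0.33 ± 0.12 were not called (edgeR adjusted p = 0.291 and 0.113), nor were any of 5 genes listed as its kin and partners.

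Mllt3 encodes AF9, a reader of acylated histones in elongation and Dot1l complexes that helps maintain human stem cells in culture, and is on chromosome 4 from 87769925 to 88033364 on the minus strand (GRCm38). It stood at 97.4, 113 and 101 CPM under IL-1β and 132, 138 and 114 CPM under PBS at 1 day, narrowly without overlap. At 20 days it stood at 171, 147, 162 and 172 CPM under IL-1β and 166, 149, 137 and 139 CPM under PBS, with overlap. The log2 fold changes were -0.30 ± 0.10 (edgeR adjusted p = 0.119) and 0.14 ± 0.09 (adjusted p = 0.395). Their difference of 0.44 ± 0.13 had the same sign as that of Pdzk1ip1 but was not called (adjusted p = 0.0966), and without IL-1β replicate 2 of the 20-day group it was 0.51 and called (adjusted p = 0.0476). DESeq2 called this difference at 0.45 (adjusted p = 0.0273). Of its 12 partner genes in these complexes, 0 were called at either duration.

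Other genes used as long-term stem cell markers, chosen with earlier results of these data known, were set beside the 10. Of 25 tested, 1 was called higher and 6 lower at 1 day (median log2 fold change -0.32). At 20 days 4 were called higher and 6 lower (median -0.03). Over all genes tested, 2.52% were called higher and 1.83% lower at 1 day, and 3.94% higher and 3.52% lower at 20 days. Mycn, a transcription factor gene, was lower, at -0.50 ± 0.11 at 1 day (edgeR adjusted p = 0.0158) and -1.22 ± 0.09 at 20 days (adjusted p = 5.51e-06). Clec1a and Mettl7a1 were called lower at 1 day, at -0.85 ± 0.14 (adjusted p = 0.00345) and -0.57 ± 0.10 (adjusted p = 0.00355), and had -0.17 ± 0.12 and 0.02 ± 0.08 at 20 days. Slamf1, which encodes the CD150 used in the sort, was higher at 20 days by 0.81 ± 0.12 (adjusted p = 0.000926). Clca3a1 was called higher at both, by 1.14 ± 0.21 and 2.10 ± 0.18.

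**Figure D4:**
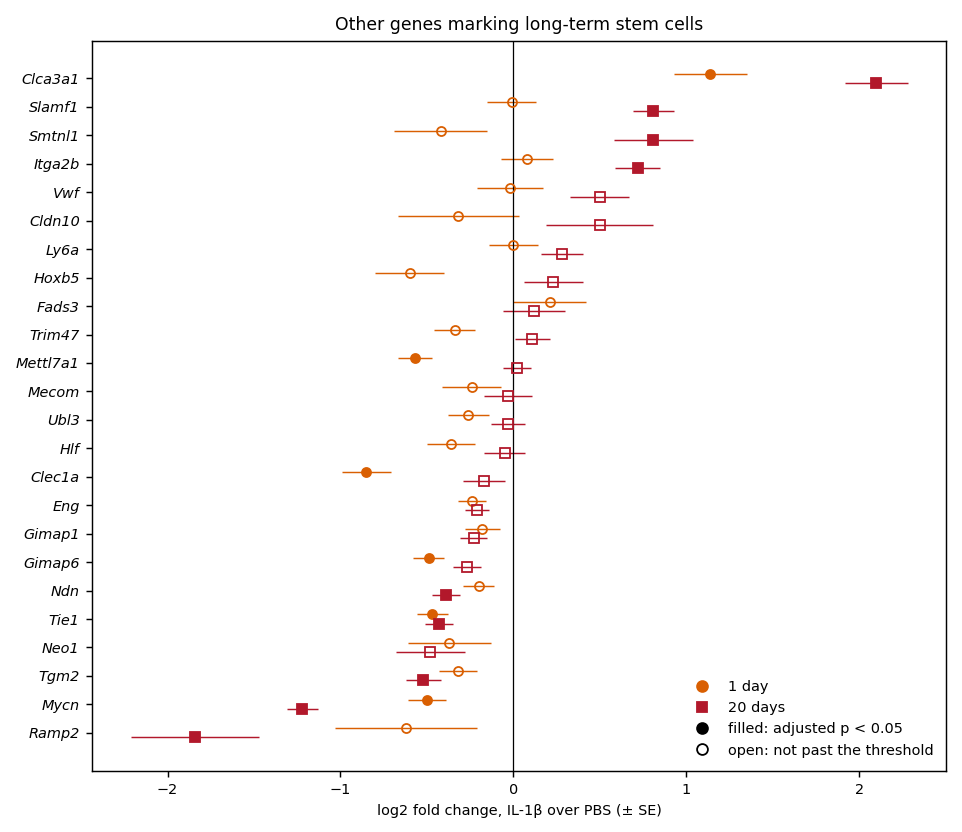
Log2 fold change of IL-1β over PBS (± SE) at 1 day (circles) and 20 days (squares) for 24 of the other genes used to mark long-term stem cells, ordered by the 20-day value; filled symbols are past the adjusted p threshold of 0.05. Tie1 lies at -0.47 and -0.43, Clca3a1 lies above 0 at both, and Slamf1 lies at -0.01 at 1 day and 0.81 at 20 days.

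Because Procr, Tek, Esam and Robo4 are also endothelial genes, markers that define endothelium were set beside them. The 6 measured of 7 such genes (Kdr leading) summed to 10 to 14.7 CPM under IL-1β and 11.1 to 22.4 CPM under PBS at 1 day, and to 11.4 to 19.6 CPM under IL-1β and 11.1 to 25 CPM under PBS at 20 days. None of the 4 with enough counts was called, and none of the 6 was at 0 throughout a group. Of 8 genes tested on a broader endothelial list that stem cells share, Pecam1 was higher at 20 days by 1.17 (edgeR adjusted p = 0.000157) and Sox18 lower, at -2.76 (adjusted p = 2.07e-05). The 11 measured genes of that list summed to 231 to 259 CPM under IL-1β and 200 to 218 CPM under PBS at 20 days, without overlap. At 1 day they summed to 177 to 200 CPM under IL-1β and 175 to 190 CPM under PBS. Pecam1 averaged 130 CPM under IL-1β and 59.1 CPM under PBS at 20 days. Macrophage genes summed to 43.7 to 54.3 CPM under IL-1β and 67.0 to 79.0 CPM under PBS at 1 day, and to 40.6 to 51.0 CPM under IL-1β and 46.5 to 82.9 CPM under PBS at 20 days, with none of the 11 at 0 throughout a group. At 1 day 1 of the 11 was called lower, Spic, and at 20 days 4 were called lower and Spic higher. Those lower at 20 days included Cd5l at -3.26 (adjusted p = 0.0281), Hmox1 at -1.40 (adjusted p = 0.038) and C1qb at -1.63 (adjusted p = 0.0445). The 9 measured genes of T, NK and B cells summed to 92.2 to 110 CPM under IL-1β and 45 to 62 CPM under PBS at 20 days, without overlap, and to 57 to 78.3 CPM under IL-1β and 44.8 to 73.9 CPM under PBS at 1 day. Of 4 tested, 1 was called, Nkg7, a granule protein gene of cytotoxic cells, which was higher at 20 days by 1.07 (adjusted p = 0.000292) and held most of the sum, while the T cell gene Cd3g was at 0 in every group but the 20-day IL-1β group, and Cd3d in the 1-day PBS group. Stromal genes (8 measured) summed to 42.7 to 60 CPM under IL-1β and 31.7 to 40 CPM under PBS at 20 days, without overlap, and to 26 to 36.4 CPM under IL-1β and 27.9 to 46.3 CPM under PBS at 1 day. Of 6 tested, Pdgfrb was higher at 20 days by 0.86 (adjusted p = 0.0369) and Col1a2 lower at 1 day, at -0.79 (adjusted p = 0.00855). These 2 genes held most of the sum. At 20 days Pdgfrb averaged 22.3 CPM under IL-1β and 11.8 CPM under PBS, and Col1a2 26 and 22.2 CPM. The others tested averaged at most 1.36 CPM in any group, had both signs at 20 days and were not called. Col3a1 was at 0 in the 20-day IL-1β and 1-day PBS groups. These sums come from the same libraries as the 20-day calls of Tek and Nov and the 1-day calls of Pdzk1ip1 and Sult1a1. Whether such cells had a part in the marker values was not tested.

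In mice given PBS alone, the durations were also compared. Of 10 markers 0 were called between PBS at 20 days and PBS at 1 day, where edgeR called 0% of all genes, 676 had an unadjusted p under 0.05 and DESeq2 called 10. Procr and Sult1a1 had an unadjusted p under 0.05 and lay wholly higher at 20 days, where 5.9% of all genes did not overlap, 3.26% higher and 2.64% lower. Procr averaged 103 ± 12.4 CPM at 20 days (n = 4) and 77.6 ± 4.64 CPM at 1 day (n = 3). Its log2 fold change was 0.40 ± 0.15 (unadjusted p = 0.0166, edgeR adjusted p = 0.999). The limit from the naming sets given for Sult1a1 holds for this value as well.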

How the data were processed

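SLAM cells from bone marrow pools of 3 to 5 mice gave 14 libraries. Per the labels' protocols, SMARTer amplification and Nextera XT preparation were followed by single-end reads of 100 bases. This chemistry does not mark the strand. The submitters' processing notes name the build GRCm38.p4 and, without roles, STAR 2.4.2a, HTSeq 0.6.1, DESeq2 1.12.3, Cuffdiff, Cufflinks 2.0.2 and Trimmomatic 0.32. The authors deposited raw counts per gene symbol for 24833 genes. The gene annotation and the strand option of that step are not given in the sources.

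The test was that of edgeR 4.0.16 (R 4.3.3; TMM, filterByExpr with a minimum count of 10, robust quasi-likelihood F-test). A single fit of the 14 libraries held naming set terms and, for each duration, an IL-1β effect, with 8 residual degrees of freedom and a biological coefficient of variation of 0.198. For PBS at 20 days against PBS at 1 day the model held the 4 groups alone, leaving 10 residual degrees of freedom. The approximate SE is |log2 fold change| over the root of F. Sums over lists use library totals, and all other CPM are TMM-scaled. The script was tested on simulated data. Counting intervals cover counting error only. Amplified reads carry no molecular identifiers. Replicates of 1 group (18 pairs) differed with chi-square over degrees of freedom of 10.7 to 74.4, beyond sampling noise in each pair.

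The markers and gene lists were chosen with earlier results of these data known. Genes named beside the markers are called genes of these lists, at most 4 per list and comparison, and the 2 genes (mean of at least 5 CPM) nearest to each called marker in centred log2 CPM (prior count 2). Angpt1, Papss1, Cyp4x1, Cd34, Cd3g, Cd3d, Col3a1, Tal1, Stil and Sgf29 were named after their values were seen. Some listed genes are not reported here by name. Loci are from GENCODE and promoters from RefSeq, both on GRCm38. Alternatives were DESeq2 1.42.0, other scalings and filters, other terms, and leaving out each library.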

Additional observations from a re-analysis of the deposited data

Results flagged for a closer look

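The IL-1β effect on Pdzk1ip1 differed between the durations by the test of the difference itself: the 20-day effect minus the 1-day effect was 0.96 ± 0.12 on the log2 scale (edgeR adjusted p = 0.00448). All 3 IL-1β libraries were below all PBS libraries at 1 day, and all 4 were above all PBS libraries at 20 days. No naming set spans both durations, so set and duration cannot be told apart in the difference between the effects. An outlier check flagged no library for any of the 10 markers in the 20-day groups (20 sets of 4 libraries checked). That check does not show that no single library moved a value. Without IL-1β replicate 4 the 20-day value of Fgd5 went from -0.64 to -0.93 (edgeR adjusted p = 0.00154).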

How the results depend on the processing

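Pdzk1ip1 at 1 day, its difference between durations and Nov at 20 days kept direction and call in the fits that left out 1 library each. Leaving out libraries gave 1 to 2 markers called at 1 day, 2 to 5 at 20 days, 1 to 2 for the difference between durations and 0 between PBS groups, with 228 to 1244, 648 to 1156, 34 to 604 and 0 genes called; over all libraries 672, 1154, 331 and 0 were called. Fitted signs changed within -0.01 to 0.11 for Esam at 1 day; within -0.01 to 0.16 for Procr and -0.10 to 0.15 for Ctnnal1 in the difference between durations; and, between PBS groups, within -0.06 to 0.15 for Fgd5, -0.15 to 0.06 for Ctnnal1, -0.10 to 0.22 for Tek and -0.01 to 0.13 for Esam, none of them called. Upper-quartile factors gave -0.02 for Esam at 1 day. DESeq2 called 1398 genes at 1 day, 1809 at 20 days, 1182 for the difference and 10 between PBS groups. It called 3 markers at 1 day (Procr added) and 2 for the difference (Mllt3 added). At 20 days it called 7 markers (3 higher, 4 lower), with Procr, Pdzk1ip1, Sult1a1, Fgd5 and Esam added. Without the naming set term 290, 525 and 23 genes were called, and 1 marker at 20 days. With only the libraries of 1 duration, 1200 genes and 4 markers were called at 1 day and 750 genes at 20 days. A minimum count of 30 added Fgd5 at 20 days (adjusted p = 0.0433). No label ties a replicate number to a shared source, and the values do not settle whether the numbers pair the samples. Over 7 same-numbered pairs within sets the correlation of deviations was -0.03 to 0.27, over 0.1 in 4. Of 7 IL-1β libraries 5 were nearest to their own number. Among these, replicate 4 at 20 days was level at 0.06 with PBS replicates 3 and 4. A replicate block in place of the set gave 383, 672 and 23 genes called, and added Sult1a1 at 20 days (-0.58, adjusted p = 0.0438). The cause of these differences was not tested. At the level of Nov, depth limits the fold.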
